A study of Mus musculus with 2 samples.

Results

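The sarcomeric myosin heavy chains are the motor proteins of the thick filament in striated muscle, and 9 of their genes were followed in mouse gastrocnemius: Myh1, Myh2, Myh3, Myh4, Myh6, Myh7, Myh7b, Myh8 and Myh13. They were chosen as a family, with earlier results of these data known, and were matched by Ensembl identifier to GENCODE M21 symbols on GRCm38. All 9 had a row among the 34745 genes counted. The study compared gastrocnemius, the large calf muscle, of C57BL/6 mice aged 8 weeks in 1 library of genotype Cry2scko and 1 library of genotype Cry2flox/flox, here called Cry2scko and Cry2flox. Cry2 encodes the clock repressor cryptochrome 2, and flox/flox means that both copies of the gene carry sites for Cre recombinase. What scko stands for, which promoter or cell type would drive a recombinase, and whether a library holds RNA of 1 animal or of several are not in the labels.

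A myosin heavy chain has a head that binds actin and splits ATP and a long tail that packs into the thick filament, and the chain a fibre makes sets how fast it shortens. In adult mouse limb muscle, slow type I fibres use Myh7, and fast fibres use Myh2 (type IIA), Myh1 (type IIX) or Myh4 (type IIB), from the most oxidative to the most glycolytic. Myh3 is the embryonic and Myh8 the perinatal chain, both made in developing and regenerating fibres. Myh6 is the alpha chain of heart, Myh7b a slow-tonic chain and Myh13 the extraocular chain, and in rodents several of these minor chains are also known from the fibres of muscle spindles.

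The libraries held 16423884 reads in Cry2scko and 18909433 reads in Cry2flox. With 1 library per genotype there is no replicate, and differences between mice could not be tested. The 95% intervals below are counting intervals. They cover counting error only and can be too narrow, because reads copied by PCR and lacking molecular identifiers need not stand for separate molecules. The ratios are Cry2scko over Cry2flox after TMM scaling of library size. A gene was called higher or lower when its ratio was at least 2-fold, its interval excluded equality and its mean was at least 1 CPM, the count scaled for depth. Cry2 itself had 133 reads in Cry2scko and 676 reads in Cry2flox, a log2 ratio of -2.16 (interval -2.44 to -1.89).

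The promoters of 4 neighbouring members, Myh2, Myh1, Myh4 and Myh8, shared a run of 14 bases, which is shown here in capitals because these genes differed in ratio while holding it. Each window covers 250 bases before to 50 bases after the RefSeq start on GRCm38.p6, and is printed 5′ to 3′ on the strand of the gene. The windows lie at chr11:67170777-67171076 for Myh2, chr11:67199852-67200151 for Myh1, chr11:67237562-67237861 for Myh4 and chr11:67276874-67277173 for Myh8, all on the plus strand.
Myh2: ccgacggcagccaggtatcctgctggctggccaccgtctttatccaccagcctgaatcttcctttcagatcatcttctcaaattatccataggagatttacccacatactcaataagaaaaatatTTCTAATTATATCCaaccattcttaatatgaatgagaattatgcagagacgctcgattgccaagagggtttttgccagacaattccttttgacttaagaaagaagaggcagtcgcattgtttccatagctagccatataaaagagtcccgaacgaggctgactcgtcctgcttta
Myh1: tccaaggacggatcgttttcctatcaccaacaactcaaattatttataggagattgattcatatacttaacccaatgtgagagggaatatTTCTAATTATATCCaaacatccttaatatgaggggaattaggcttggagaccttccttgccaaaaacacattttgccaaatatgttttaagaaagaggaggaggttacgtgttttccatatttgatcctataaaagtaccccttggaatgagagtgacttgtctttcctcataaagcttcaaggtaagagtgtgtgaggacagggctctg
Myh4: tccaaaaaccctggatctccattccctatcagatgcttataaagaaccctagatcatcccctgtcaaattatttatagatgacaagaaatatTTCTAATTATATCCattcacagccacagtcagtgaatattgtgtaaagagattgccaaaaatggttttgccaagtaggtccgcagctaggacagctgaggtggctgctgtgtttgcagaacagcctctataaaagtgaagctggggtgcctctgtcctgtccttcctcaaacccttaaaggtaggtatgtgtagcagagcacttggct
Myh8: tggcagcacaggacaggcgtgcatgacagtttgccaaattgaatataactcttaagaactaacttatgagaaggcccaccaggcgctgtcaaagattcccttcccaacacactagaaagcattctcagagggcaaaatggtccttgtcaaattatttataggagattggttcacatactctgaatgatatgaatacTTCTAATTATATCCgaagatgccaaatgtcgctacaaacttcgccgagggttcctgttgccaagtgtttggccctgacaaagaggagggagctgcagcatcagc

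The run TTCTAATTATATCC was found by comparing the windows with each other, and on either strand it was in 4 of 27025 promoters, or 0.0148%, which are these 4. Counted from the start site, its first base is at -125 in Myh2, -160 in Myh1, -158 in Myh4 and -54 in Myh8. These positions depend on where RefSeq places the start of each gene. The windows of Myh3 and Myh7, which were both called higher, do not contain it, and neither do those of Myh6, Myh7b and Myh13, which were not called. The windows printed below lie at chr11:67078050-67078349 on the plus strand for Myh3 and at chr14:54994577-54994876 on the minus strand for Myh7, for which RefSeq also gives a second start. In Myh7 the capitals mark the reverse complement of CATTCC, the core of the M-CAT element that TEAD factors bind. The window of the second Myh7 start, at chr14:54994500-54994799, does not contain CATTCC on either strand.
Myh3: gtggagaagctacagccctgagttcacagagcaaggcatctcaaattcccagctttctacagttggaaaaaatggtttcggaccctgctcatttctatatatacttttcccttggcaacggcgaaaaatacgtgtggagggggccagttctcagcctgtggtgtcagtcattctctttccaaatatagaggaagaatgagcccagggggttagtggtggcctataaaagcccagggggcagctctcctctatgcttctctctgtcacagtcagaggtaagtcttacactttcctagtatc
Myh7: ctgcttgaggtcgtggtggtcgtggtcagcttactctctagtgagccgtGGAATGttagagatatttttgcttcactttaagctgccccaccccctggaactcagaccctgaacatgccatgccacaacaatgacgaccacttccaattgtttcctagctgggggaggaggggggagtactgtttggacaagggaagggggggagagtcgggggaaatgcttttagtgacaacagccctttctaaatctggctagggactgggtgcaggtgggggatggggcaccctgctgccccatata

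CATTCC was in 4 of the 9 members' windows and in 14.6% of all promoters, counting both strands. Myh7 is among the 4 through its printed window only. CACGTG, the E-box that the CLOCK and BMAL1 activators bind and that cryptochromes repress, was in 1 member, Myh7b, and in 7.24% of all promoters. The broader CANNTG, which includes CACGTG, was in 7 of 9 members and in 72.1% of all promoters. TATAAA, read on the strand of the gene, was in 5 of 9 members against 8.88% of all promoters, and the MEF2 consensus was in 3 of 9, Myh1, Myh4 and Myh8, against 3.26%. TATAAA began after the start in Myh2 (11) and Myh6 (2), and before it in Myh3 (-29), Myh1 (-32) and Myh4 (-213 and -31). The CArG box was in 2 of 9, Myh4 and Myh13, against 1.57%. These matches describe letters in the windows and were not tested against binding.

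The fast myosin Myh4 took most of the myosin reads in both libraries. The reads of the 9 members summed to 893629 in Cry2scko, 5.44% of all reads (exact interval 5.43 to 5.45%), and to 1095604 in Cry2flox, 5.79% (5.78 to 5.80%). The summed myosin count had a log2 ratio of -0.11 (-0.11 to -0.11), so the total differed far less than some of its parts. Levels of different genes are compared as FPKM, which divides by gene length. Myh4 stood at 7113 FPKM in Cry2scko and 7751 FPKM in Cry2flox, and ranked 15 among all genes in each. In Cry2scko the order below it was Myh1 at 585 FPKM, Myh2 at 418 FPKM and Myh7 at 105 FPKM, and in Cry2flox it was Myh1 at 670 FPKM, Myh2 at 339 FPKM and Myh7 at 43.0 FPKM. The counting intervals of these adult chains did not overlap in either library.

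The 5 minor members stood far below the adult chains, at 1.46 FPKM or less. In Cry2scko their order was Myh7b (1.46 FPKM), Myh3 (1.18), Myh13 (0.814), Myh6 (0.704) and Myh8 (0.163). In Cry2flox it was Myh7b (0.976 FPKM), Myh13 (0.849), Myh6 (0.575), Myh3 (0.373) and Myh8 (0.354). Neighbours in these orders had overlapping counting intervals, except that Myh8 lay below Myh6 in Cry2scko. The place of Myh8 depends on its long gene model, since its FPKM divides by 12707 bases. In Cry2flox it had 85 reads, against 79 for Myh6 and 47 for Myh3. Together the 5 took 504 reads in Cry2scko, 0.0564% of the myosin reads (0.0516 to 0.0615%), and 448 reads in Cry2flox, 0.0409% (0.0372 to 0.0449%).

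**Figure D1:**
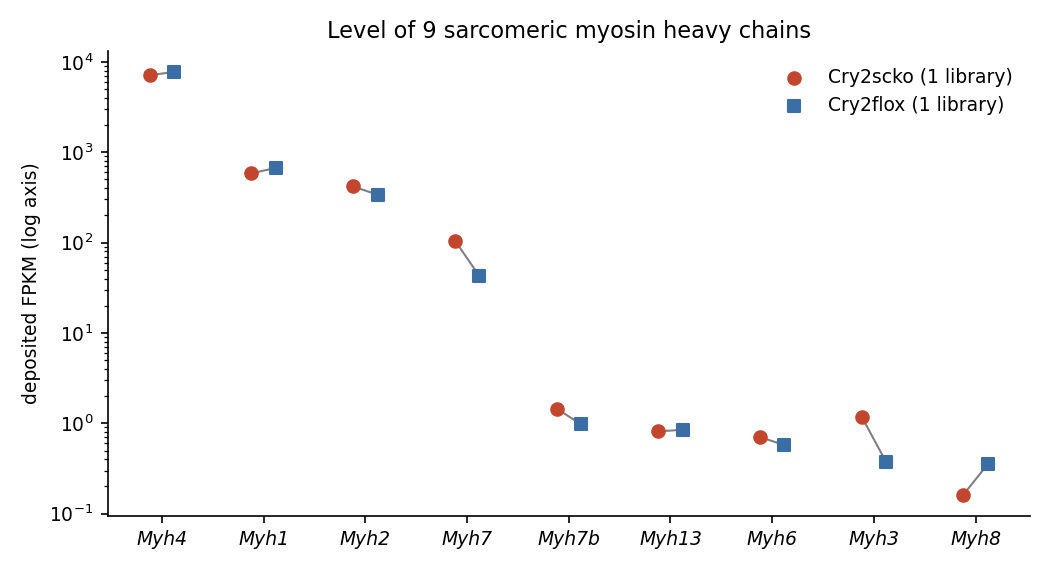
Deposited FPKM of each myosin heavy chain on a log axis, with 1 point for the Cry2scko library and 1 for the Cry2flox library. Myh7 (105 and 43.0 FPKM) and Myh3 (1.18 and 0.373 FPKM) were higher in Cry2scko, Myh8 (0.163 and 0.354 FPKM) was lower, and Myh4 had the highest level in both.

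Among the fast adult chains, Myh2 was the one with a higher count in Cry2scko. Myh4 (ENSMUSG00000057003, chr11:67238029-67260446), the IIB chain, had 755303 reads in Cry2scko and 947513 reads in Cry2flox. Its log2 ratio was -0.14 (-0.15 to -0.14), a 1.10-fold lower level. Myh1 (ENSMUSG00000056328, chr11:67200052-67224575), the IIX chain, had 69134 reads in Cry2scko and 91189 reads in Cry2flox, a log2 ratio of -0.22 (-0.23 to -0.20). Myh2 (ENSMUSG00000033196, chr11:67171027-67197517), the IIA chain, had 52028 reads in Cry2scko and 48632 reads in Cry2flox. Its log2 ratio was 0.28 (0.26 to 0.30), 1.21-fold higher. None of these 3 reached 2-fold, and at this depth their counting intervals are so narrow that the missing replicate, not the read number, limits what they show.

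The slow chain Myh7 (ENSMUSG00000053093, chr14:54970684-54994626, minus strand) differed most among the adult chains. It had 16660 reads in Cry2scko and 7822 reads in Cry2flox, a 2.42-fold higher level with a log2 ratio of 1.27 (1.24 to 1.31), and was called higher. By FPKM it ranked 222 among all genes in Cry2scko and 554 in Cry2flox. In these whole-muscle libraries a larger share of slow fibres and more Myh7 RNA in each slow fibre cannot be told apart, and with 1 library each neither can the genotype and a difference between the muscles sampled.

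As shares of the summed myosin reads, the adult chains moved by a few percentage points. Myh4 took 84.5% in Cry2scko (84.4 to 84.6%) and 86.5% in Cry2flox (86.4 to 86.5%). Myh1 took 7.74% in Cry2scko (7.68 to 7.79%) and 8.32% in Cry2flox (8.27 to 8.38%). These are the chains whose shares were smaller in Cry2scko. Myh2 took 5.82% in Cry2scko (5.77 to 5.87%) and 4.44% in Cry2flox (4.4 to 4.48%). Myh7 took 1.86% in Cry2scko (1.84 to 1.89%) and 0.714% in Cry2flox (0.698 to 0.730%). The Cry2scko minus Cry2flox differences were -1.96 points for Myh4, -0.59 for Myh1, 1.38 for Myh2 and 1.15 for Myh7. The fast chains Myh1, Myh2 and Myh4 still made up 98.1% of the myosin reads in Cry2scko and 99.2% in Cry2flox.

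**Figure D2:**
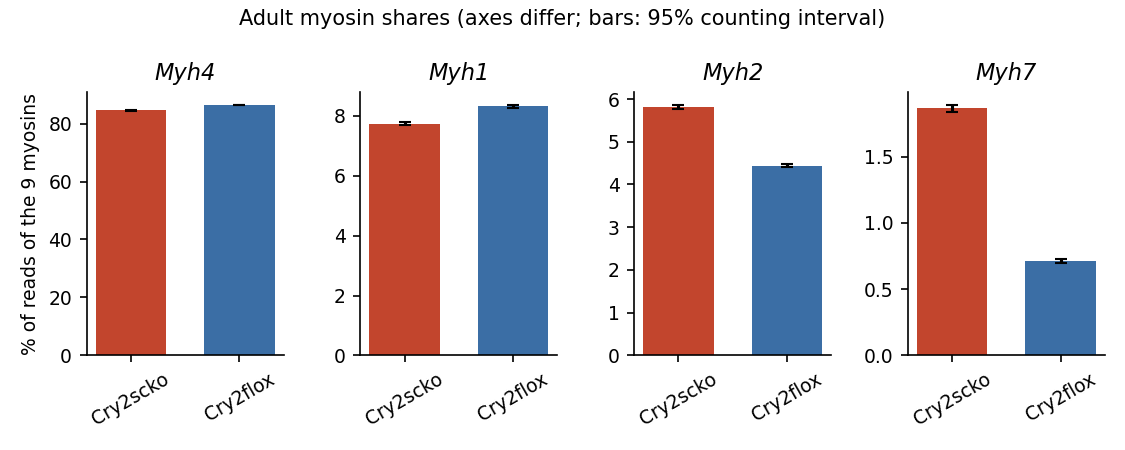
Share of the reads of the 9 myosin genes taken by each adult chain, in percent, with exact 95% counting intervals; each panel has its own axis from 0. Myh4 and Myh1 took a smaller share in Cry2scko, and Myh2 (5.82% and 4.44%) and Myh7 (1.86% and 0.714%) a larger one.

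Counted per length, the slow chain took a smaller part, since its gene model is long. Of the summed FPKM, Myh7 made up 1.28% in Cry2scko and 0.488% in Cry2flox, and Myh2 made up 5.08% in Cry2scko and 3.85% in Cry2flox. Myh4 made up 86.5% of it in Cry2scko and 88.0% in Cry2flox, and Myh1 made up 7.11% in Cry2scko and 7.61% in Cry2flox. The directions were those of the read shares. The length behind the deposited FPKM was 9630 bases for Myh7 and 6465 bases for Myh4, against merged exon lengths of 8616 and 6016 bases in the annotation used here.

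The other 2 members of the slow and cardiac branch had few reads. Myh7b (ENSMUSG00000074652, chr2:155611212-155634307) had 167 reads in Cry2scko and 129 reads in Cry2flox, with a log2 ratio of 0.55 (0.22 to 0.90) that did not reach 2-fold. Myh6 (ENSMUSG00000040752, chr14:54941921-54966927, minus strand), next to Myh7 on chromosome 14, had 84 reads in Cry2scko and 79 reads in Cry2flox. Its log2 ratio of 0.27 (-0.19 to 0.73) included equality, so a difference in Myh6 was not detectable at this depth. Relative to its neighbour Myh6, Myh7 was higher in Cry2scko: the Myh7 over Myh6 read ratio was 198 in Cry2scko and 99.0 in Cry2flox, a log2 change of 1.0 (0.56 to 1.45).

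The embryonic and the perinatal chain had opposite ratios. Myh3 (ENSMUSG00000020908, chr11:67078300-67102291) had 129 reads in Cry2scko and 47 reads in Cry2flox. Its log2 ratio was 1.63 (1.15 to 2.15), 3.10-fold higher, and it was called higher. Myh8 (ENSMUSG00000055775, chr11:67277124-67308634) had 34 reads in Cry2scko and 85 reads in Cry2flox. Its log2 ratio was -1.13 (-1.76 to -0.55), 2.18-fold lower, and it was called lower. The call of Myh8 ended when a mean of 5 CPM was required, and with the deposited FPKM its log2 ratio was -0.79 after 0.1 FPKM was added. The Myh3 over Myh8 read ratio was 3.79 in Cry2scko and 0.553 in Cry2flox, a log2 change of 2.78 (2.03 to 3.53). Myh13 (ENSMUSG00000060180, chr11:67321658-67371586), the extraocular chain, had 90 reads in Cry2scko and 108 reads in Cry2flox, and its log2 ratio of -0.08 (-0.50 to 0.34) included equality.

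By the 2-fold rule, 2 of 9 members were called higher (Myh3 and Myh7), 1 lower (Myh8) and 6 neither. Across the 12832 genes with a mean of 1 CPM or more, 432 were called higher, or 3.37%, and 194 lower, or 1.51%. Such small counts among 9 members describe the single genes, not the family. The median log2 ratio of the members was 0.27, against -0.00 for all tested genes, whose quartiles were -0.17 and 0.18. Myh3 lay above 99.1% and Myh7 above 98.2% of the tested genes by ratio, and Myh8 above 1.11%.

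**Figure D3:**
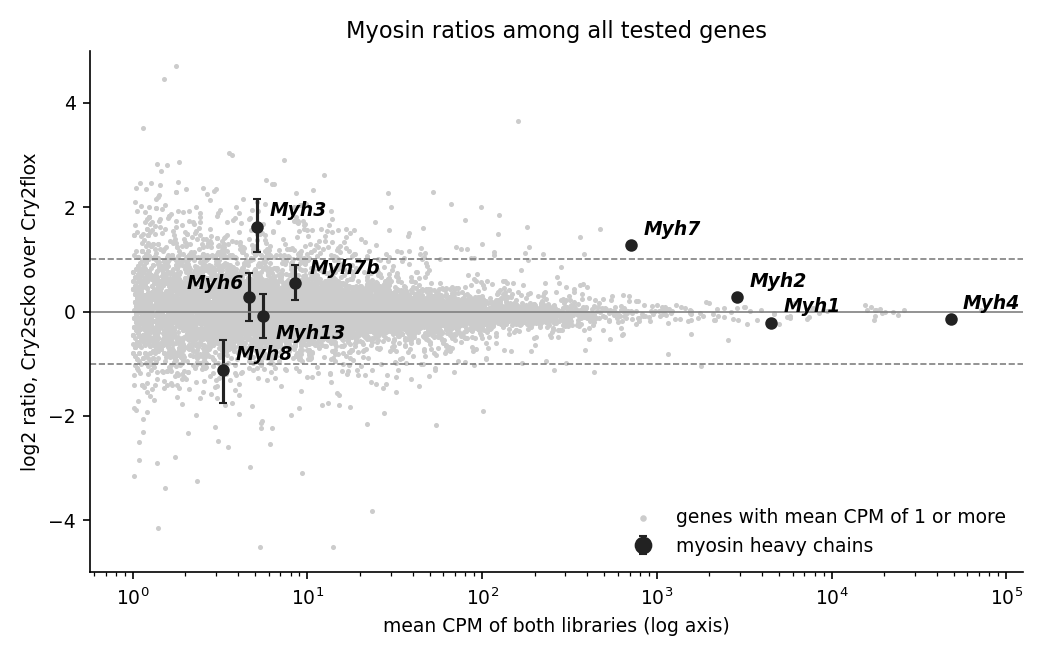
Log2 ratio of Cry2scko over Cry2flox against mean CPM (log axis) for the 12832 tested genes in grey, with the 9 myosins and their 95% counting intervals in black; dashed lines mark 2-fold, and 5 genes lie outside the plotted range. Myh7 (1.27) and Myh3 (1.63) lie above the upper dashed line and Myh8 (-1.13) below the lower one, and the other 6 myosins lie between the lines.

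Ratios of one member to another within a library need no scaling between libraries. Their log2 changes are given with Woolf 95% intervals from the 4 read counts. Myh7 had 0.0221 reads per Myh4 read in Cry2scko and 0.00826 in Cry2flox, a 2.67-fold difference with a log2 change of 1.42 (1.38 to 1.46). Myh2 had 0.0689 reads per Myh4 read in Cry2scko and 0.0513 in Cry2flox, at 0.42 (0.41 to 0.44). Myh1 per Myh4 was the steadiest of these, with 0.0915 in Cry2scko and 0.0962 in Cry2flox, at -0.07 (-0.09 to -0.06). Myh7 per Myh2 was at 0.99 (0.95 to 1.04), so the slow chain was also higher relative to the oxidative fast chain. On the FPKM scale Myh4 exceeded Myh7 by 67.5 times in Cry2scko and by 180 times in Cry2flox.

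Of the 9 genes, 6 lie in 1 cluster on chromosome 11, all on the plus strand, in the order Myh3, Myh2, Myh1, Myh4, Myh8 and Myh13 over 293 kb. The ratios did not run in order along it: the ends were Myh3 at 1.63 and Myh13 at -0.08, with Myh2 at 0.28, Myh1 at -0.22, Myh4 at -0.14 and Myh8 at -1.13 between them. Myh8 begins 16.7 kb after the end of Myh4, and in FPKM Myh4 exceeded it by 43663 times in Cry2scko and 21910 times in Cry2flox. These multiples depend on the gene models: the FPKM of Myh8 divides by 12707 bases and that of Myh4 by 6465. Their coding lengths are close, at 5814 and 5820 bases, so the multiples are smaller in reads. The long noncoding gene 2310065F04Rik, on the minus strand between Myh3 and Myh2, had 2543 reads in Cry2scko and 2393 reads in Cry2flox. Its log2 ratio of 0.27 (0.19 to 0.35) was close to that of Myh2. Myhas, an antisense gene that overlaps Myh1 and reaches to 0.456 kb from Myh4, had 1075 reads in Cry2scko and 1161 reads in Cry2flox, at 0.07 (-0.05 to 0.19).

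**Figure D4:**
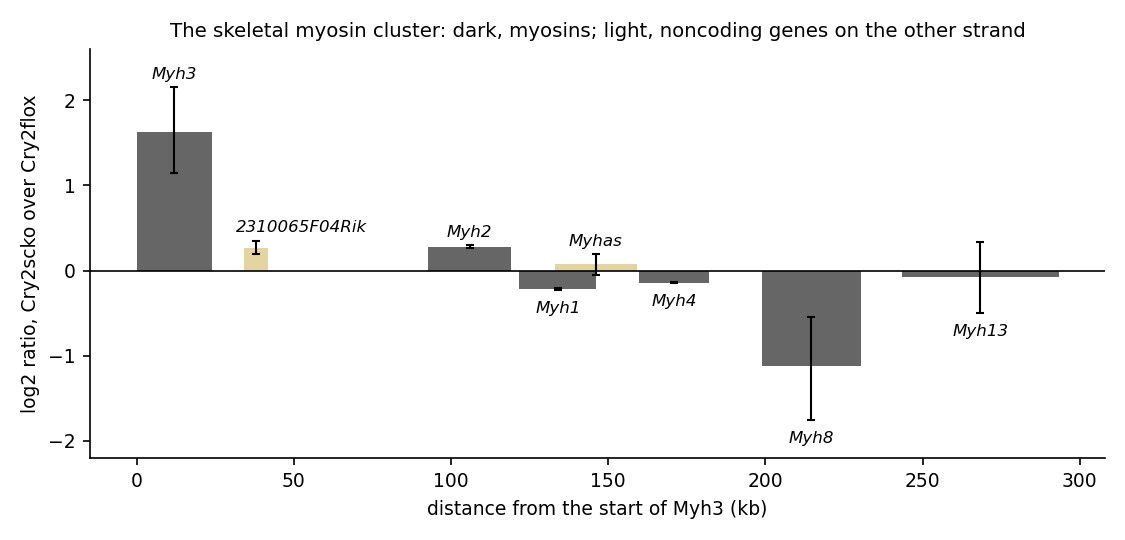
Log2 ratio of Cry2scko over Cry2flox for the genes of the skeletal myosin cluster, drawn at their distance from the start of Myh3 in kb, with bar width the gene length and error bars the 95% counting interval; 9430073C21Rik, under a mean of 1 CPM, is not drawn. Myh3 (1.63) and Myh8 (-1.13) differ in sign, and the adult chains between them lie from -0.22 (Myh1) to 0.28 (Myh2).

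Close relatives can exchange reads, and the counter used is not given in the sources used here. In coding sequence, Myh6 and Myh7 were 91.7% identical, Myh1 and Myh2 90.9%, Myh1 and Myh4 90.1% and Myh1 and Myh8 89.2%, whereas Myh7b was at most 71.7% identical to any other member. Of the 100-base stretches in its transcripts, 10% in Myh6, 9.24% in Myh1, 7.80% in Myh2, 7.71% in Myh7, 3.85% in Myh4, 3.38% in Myh8, 3.38% in Myh13 and 1.13% in Myh3 were also found in another member, and 0 in Myh7b. The reads of Myh8 equalled 0.0045% of those of Myh4 in Cry2scko and 0.0090% in Cry2flox, so the counts of the minor chains are uncertain, and the part of exchanged reads in them was not tested. At that length Myh7 and Myh6 shared stretches with each other and with no other member, and Myh6 had under 100 reads in each library.

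Genes on the opposite strand share exon bases with some members, and the strand setting of the counting is not given in the sources used here. Myhas shares 515 bases with Myh1, 9430073C21Rik (13 reads in Cry2scko and 17 in Cry2flox) shares 237 with Myh2, and Mhrt (6 reads in Cry2scko and 3 in Cry2flox) shares 484 with Myh7. Trpc4ap, with 1619 reads in Cry2scko and 1679 in Cry2flox, shares 37 bases with Myh7b, which had 167 reads in Cry2scko and 129 in Cry2flox. If strand was not used in counting, reads from the shared bases cannot be told apart.

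The 10 listed partners of Myh7 in slow fibres had ratios of the same direction. Mybpc1, the slow-type myosin-binding protein C, was placed in the thick filament list and was at 0.01 (-0.02 to 0.03). The list of 10 slow-fibre genes held troponins, light chains, a tropomyosin, calcium-handling and Z-disc genes. All 10 had a ratio above 1, 5 were called higher and 5 neither, and the median log2 ratio was 0.98. Over the 12832 tested genes, 3.37% were called higher, 6350 had a ratio above 1 and 6482 below it. Summed over the list, the level was 2192 CPM in Cry2scko and 1128 CPM in Cry2flox. The calcium pump Atp2a2 had 8665 reads in Cry2scko and 4599 reads in Cry2flox, at 1.10 (1.05 to 1.15). Tropomyosin Tpm3 had 5046 reads in Cry2scko and 2670 reads in Cry2flox, also at 1.10 (1.03 to 1.17). Slow troponin T (Tnnt1) was at 1.25 (1.17 to 1.32), close to Myh7 at 1.27. The slow troponins Tnnc1 and Tnni1 were at 1.14 and 1.61. Of the light chains that sit on the neck of slow myosin, Myl3 had 5994 reads in Cry2scko and 3771 reads in Cry2flox and Myl2 had 4525 reads in Cry2scko and 3508 reads in Cry2flox. Their log2 ratios of 0.85 and 0.55 were positive but smaller than that of the heavy chain, and neither was called. That this list would be higher was known from earlier results of these data, so it is no independent sign.

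Fast-fibre partners lay around equality, while the fast heavy chains ranged from -0.22 (Myh1) to 0.28 (Myh2). Of 12 genes, 0 were called, against 3.37% higher and 1.51% lower over all tested genes. Of the 12, 6 had a ratio above 1 and 6 below it, and the median log2 ratio was -0.02, with a range of -0.24 to 0.17. Their summed level was 110943 CPM in Cry2scko and 114176 CPM in Cry2flox. The fast calcium pump Atp2a1 had 334551 reads in Cry2scko and 379663 reads in Cry2flox, at 0.00 (-0.01 to 0.01), and fast troponin T (Tnnt3) was at 0.03. Fast myosin-binding protein C (Mybpc2) was at -0.24, the lowest of the list.

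Genes that build and hold the thick filament also showed no call. All 13 of that list were tested and 0 were called, against 3.37% higher and 1.51% lower over all tested genes. The median log2 ratio of the list was -0.02. Titin (Ttn), the spring and ruler of the sarcomere, had 88390 reads in Cry2scko and 107950 reads in Cry2flox, at -0.11. The myosin chaperone Unc45b was at 0.07 (0.00 to 0.13) and Smyd1, a methyltransferase needed for thick filament assembly, at -0.06.

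**Figure D5:**
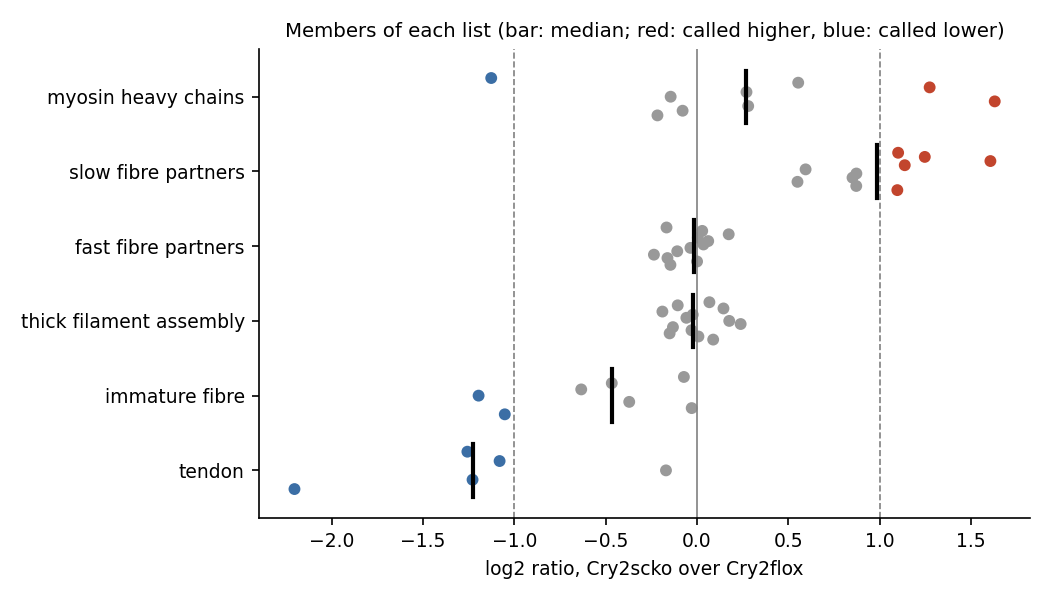
Log2 ratio of Cry2scko over Cry2flox for each tested member of the myosin family and 5 other gene lists, with a black bar at the median of the list; red points were called higher, blue points lower and grey points neither. The 10 slow-fibre partners all lie above 0 with a median of 0.98, and the fast-fibre and thick filament lists centre on 0.

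Among transcriptional regulators of fibre type, the most abundant were Mef2c, a MADS-box factor of muscle, at a log2 ratio of 0.09 (0.04 to 0.15) and Maf, a bZIP factor linked to type IIB fibres, at -0.18 (-0.23 to -0.12). Neither was called. Of the 15 listed, all were tested, 0 were called higher, 1 lower and 14 neither, against 3.37% higher and 1.51% lower over all tested genes. The median log2 ratio of the list was -0.10. The gene called lower is among those not reported here. Eya1, a transcriptional coactivator, had 385 reads in Cry2scko and 290 reads in Cry2flox, at 0.59 (0.37 to 0.82). Sox6, which represses slow-fibre genes in fast fibres, was at -0.34 (-0.44 to -0.24), with 1431 reads in Cry2scko and 2059 reads in Cry2flox. Tbx15 was at -0.10 and Ppargc1a, the PGC-1 alpha coactivator of oxidative metabolism, at -0.22, while Nfatc1, a calcineurin-dependent factor of slow fibres, was at 0.00 (-0.14 to 0.14).

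Other markers of immature fibres did not share the direction of Myh3. Of 9 listed, 7 were tested, all 7 had a ratio below 1, 2 were called lower and 5 neither, with a median log2 ratio of -0.47. Over the 12832 tested genes, 1.51% were called lower, and 6482 had a ratio below 1 and 6350 above it. Cardiac alpha actin (Actc1) had 19201 reads in Cry2scko and 45201 reads in Cry2flox, at -1.05 (-1.08 to -1.03). Mymk, the fusion protein myomaker, was called lower on 12 reads in Cry2scko and 32 reads in Cry2flox. Its mean of 1.21 CPM passed the filter of 1 CPM only through Cry2flox, at 1.70 CPM against 0.726 CPM in Cry2scko. Cdh15, the cadherin of satellite cells and myoblasts, was at -0.03 (-0.29 to 0.23). The myogenic factor Myog had 144 reads in Cry2scko and 254 reads in Cry2flox, at -0.63 (-0.94 to -0.34). The summed level of the list was 1199 CPM in Cry2scko and 2455 CPM in Cry2flox. Nearly all of that sum was Actc1, at 1161 CPM in Cry2scko and 2407 CPM in Cry2flox, so it describes 1 gene. Some of the 7 intervals, such as that of Cdh15, included equality. The direction of Myh8 was that of this list and the direction of Myh3 was not.

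Markers of heart were nearly absent beside Myh6 and Myh7. Of 5 heart markers, Nppa, Nppb, Myl7 and Mybpc3 had 0 reads in each library, which allows up to 0.181 CPM in Cry2scko and 0.160 CPM in Cry2flox at a floor of 3 reads. The fifth, Tnni3, had 9 reads in Cry2scko and 21 reads in Cry2flox. Factors of muscle spindle fibres, where several minor chains are known, showed no common direction: of 4, 1 was called higher, 1 lower and 2 neither. The shares called over all tested genes were 3.37% higher and 1.51% lower. Egr3 had 26 reads in Cry2scko and 13 reads in Cry2flox, Etv1 had 28 reads in Cry2scko and 67 reads in Cry2flox, and the more abundant Etv5 and Etv4 were at -0.09 and -0.25. Egr3, the one called higher, had a mean of 1.13 CPM. It passed the filter of 1 CPM only through Cry2scko, at 1.57 CPM against 0.692 CPM in Cry2flox. The summed level of these spindle factors was 22.6 CPM in Cry2scko and 25.2 CPM in Cry2flox.

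Tendon genes were lower in the same Cry2scko library in which Myh7 was higher. Of 6 tendon markers, 5 were tested, 4 were called lower and 1 neither, against 1.51% called lower over all tested genes. The median log2 ratio of the 5 was -1.23. The summed level was 73.3 CPM in Cry2scko and 164 CPM in Cry2flox, and Thbs4 (-1.08), Fmod (-1.23), Tnmd (-1.26) and Comp (-2.2) were the genes called. None of the 6 markers was at 0 reads, and their part in the Myh7 difference was not tested.

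Myosin heavy chains outside the sarcomeric set gave 0 calls. Of 5 listed, 4 were tested. Over all tested genes the shares called were 3.37% higher and 1.51% lower. The nonmuscle chain Myh9 was at 0.08 and the smooth muscle chain Myh11 at -0.07. The nonmuscle chain Myh14 had 631 reads in Cry2scko and 368 reads in Cry2flox, at 0.96 (0.77 to 1.15), just under 2-fold, and Myh10 was at -0.15. Myh15 had 1 read in Cry2scko and 0 in Cry2flox, so no ratio is given. The microRNA genes inside Myh6, Myh7 and Myh7b, Mir208a, Mir208b and Mir499, were not analysed here.

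The genes nearest to 3 members in log2 CPM over the 2 libraries were taken by Euclidean distance. Nearest to Myh3 were Fermt3 (distance 0.0690), an integrin activator of blood cells, Themis2 (0.0754) and Grap2 (0.102), an adaptor of T cells. Their reads were 126, 123 and 122 in Cry2scko and 49, 46 and 45 in Cry2flox. No gene came as close to Myh7, with Lpl (0.684), Gpi1 (0.697) and Pink1 (0.759) nearest in level but at log2 ratios of 0.30 to 0.31 against 1.27. Nearest to Myh4 were mt-Co1 (0.825), mt-Cytb (1.24) and Acta1 (1.41), skeletal alpha actin, whose log2 ratio was -0.07. A distance over 2 libraries describes level and ratio only.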

How the data were processed

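RNA of gastrocnemius was sequenced in 2 libraries, 1 Cry2scko and 1 Cry2flox, grouped by the genotype label. The library kit was VAHTS Universal V6, used on total RNA per the labels' protocols, and CASAVA, HISAT2 2.0.4, StringTie 1.3.0 and GRCm38 are named in the submitters' processing notes. The authors deposited whole-number read counts per gene, not normalised, and, per the file headers, FPKM values for each library. The read counter, annotation release, read length and strand setting are not given in the sources used here. Counts and FPKM implied the same gene length in both libraries within 0.1 percent in 100% of 16284 genes with reads in both, so they hold the same reads.

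Of 34745 identifiers, 34344 had a GENCODE M21 name. TMM factors (edgeR 4.0.16, R 4.3.3) were 1.01 for Cry2scko and 0.993 for Cry2flox. Ratios used counts with 0.5 reads added, and the exact (Clopper-Pearson) binomial interval was used for ratios and for shares of myosin reads. Intervals of single FPKM levels are exact Poisson intervals. The procedure was tested on simulated Poisson counts, which hold counting error only. That test cannot show how the calls behave with differences between mice or with reads copied by PCR. No p-value was computed, since 1 library per genotype allows no test across animals.

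All 9 members are described. From the other lists the text names members past the 2-fold rule and the 2 of highest mean CPM, and further members, such as Tnni1, Sox6, Eya1, Myog, Myl2, Myl3, Smyd1, Unc45b, Tbx15, Ppargc1a, Nfatc1, Mybpc1, Mybpc2, Myh10 and Myh14, were chosen after their values were seen. A few genes of these lists are not reported here. The members and lists were chosen with earlier results of these data known. Alternatives were other scalings (DESeq2 1.42.0 size factors among them), filters, added reads, a fold of 1.5 and shares per length. Promoters came from RefSeq (GRCm38.p6; 9 of 9 members matched), and coding sequences, the longest open reading frame in the transcripts of a gene, were aligned with MAFFT 7.526. Calculations used Python 3.11.15, numpy 2.4.6, scipy 1.17.1, pandas 2.3.3 and matplotlib 3.10.9.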

Additional observations from a re-analysis of the deposited data

How the results depend on the processing

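The 9 log2 ratios kept their direction in 54 of 54 values under 6 alternatives: total counts, DESeq2 size factors, totals without mitochondrial and the 20 most abundant genes, totals without the 9 myosins, FPKM and 5 added reads. A change of scaling moves all genes by a common amount. The median of the tested genes stayed from -0.01 to 0.03 under the scalings, so these signs could hardly change. For Myh6 and Myh13, whose intervals included equality, a kept direction does not show a difference. Myh7 ranged from 1.27 to 1.3, Myh3 from 1.44 to 1.66, Myh8 from -1.13 to -0.79 and Myh4 from -0.15 to -0.12. Myh3 and Myh7 were called higher in every setting run. Myh3 passed the filter of 5 CPM only narrowly, with a mean of 5.15 CPM. It did so through the library in which it was higher, at 7.80 CPM in Cry2scko and 2.50 CPM in Cry2flox, so that setting is no separate check. Myh8 was the only member called lower, and the number called lower was 0 with a mean CPM of 5 or more, since its mean is under 5, and 0 with the deposited FPKM after 0.1 was added, which shrinks low values.

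Over all genes the calls were 789 higher and 396 lower with no filter on low counts, because more genes enter, 175 and 76 with a mean CPM of 5 or more, because fewer do, and 842 and 558 at a fold of 1.5. With FPKM the lower calls were 116. The share differences (Cry2scko minus Cry2flox, in points) were -1.54 for Myh4, -0.50 for Myh1, 1.23 for Myh2 and 0.79 for Myh7 by FPKM, and -1.52 for Myh4, 1.21 for Myh2 and 0.82 for Myh7 per merged exon length, as both divide by gene length. Among the 4 adult chains alone they were -1.95, -0.59, 1.39 and 1.15. No paired analysis was possible because each genotype has 1 library, and none could be left out. With few reads, depth limits the minor chains, and for the adult chains the lack of replicates does.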
